A study of Mus musculus with 14 samples.

Results

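The comparison of knockout with wild-type cerebral cortex in C57BL/6 mice rests on 4 of the 14 bulk RNA libraries of the study, 2 from CARIP-/- animals and 2 from wild-type animals. They were chosen by their labels: the tissue is given as cerebral cortex and the titles read Cerebrum. The knockout libraries carry the numbers 1 and 2 in their titles and the wild-type libraries the numbers 2 and 3, and they are called knockout 1, knockout 2, wild type 2 and wild type 3 here. For age, sex and the way CARIP was deleted, the labels give nothing. No label says what the numbers stand for or whether each library is a separate animal. The p-values of the main comparison therefore measure only a spread between libraries, which may be technical. That spread is shared over all 14 libraries of the study and is not that of the 4 cortical ones alone. No symbol in the annotation names CARIP, so the targeted gene is not reported.

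Cerebral cortex is built of layers of glutamatergic projection neurons with scattered GABAergic interneurons, supported by astrocytes, oligodendrocytes, microglia and vessels. When neurons fire, calcium entry switches on immediate early genes within minutes, among them the transcription factors Fos and Egr1 and the synaptic protein Arc, and their transcripts decay quickly again. Their level in a dissected cortex is therefore known to follow recent neuronal activity. Striatum, thalamus, choroid plexus and meninges lie against the cortex and can enter a dissected piece.

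The 4 libraries did not stand at equal distance from each other. Counted reads came to 24.3 M to 38.8 M per library. Across the 16060 genes with a mean log2 CPM (read counts per M counted reads of the library) of at least 1, log levels of knockout 1 correlated at Pearson's r = 0.983 with wild type 2 and at 0.987 with wild type 3, and at only 0.93 with knockout 2. These are correlations across genes, which are not independent replicates. Knockout 2 lay more than 2-fold above each of the other 3 libraries in 404 genes and more than 2-fold below them in 1201. The same counts were 7 and 17 for knockout 1, 12 and 19 for wild type 2, and 36 and 27 for wild type 3. Values are therefore given for each library, and without knockout 2 where that library decides them.

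Knockout 2 held cortical transcripts together with transcripts of other brain tissue. Cux2, which marks upper-layer neurons, stood at 148 CPM in knockout 2 and at 251 to 275 CPM in the other 3 libraries. The vesicular glutamate transporter Slc17a7 stood at 640 CPM against 802 to 874 CPM. The 4 libraries thus all carried the markers of cortex, and Cux2 was lower in knockout 2, at 55.6% of the mean of the others. Most other cortical markers checked were lower there too, but not all. Tle4 was higher in knockout 2, at 90.0 CPM against 54.7 to 62.7 CPM. Neurod6 stood at 46.3 CPM there, within the 39.9 to 53.2 CPM of the others. Cerebellar tissue was at most a trace, since Cbln3, a granule cell gene, was at 0.92 CPM or less in all 4 libraries against 644 to 1050 CPM in the cerebellar ones. Markers of hippocampal excitatory neurons summed to 1090 CPM in knockout 2 against 699 to 720 CPM. Prox1 and Fibcd1, checked as hippocampal markers, stood there at 78.0 and 21.4 CPM. In the other 3 libraries they stood at 23.8 to 25.9 CPM and at 3.16 to 7.74 CPM.

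Markers of striatal projection neurons summed to 1550 CPM in knockout 2 and to 428, 392 and 308 CPM in knockout 1, wild type 2 and wild type 3. All 17 listed striatal genes were highest in knockout 2, including Adora2a, the adenosine receptor of indirect-pathway neurons, at 32.9 CPM against 1.99, 1.42 and 1.03 CPM. Thalamic markers summed to 1050 CPM against 350 to 371 CPM, and choroid plexus markers to 1140 CPM against 241 to 288 CPM. Ttr, the thyroid hormone carrier secreted by choroid plexus, reached 511 CPM in knockout 2, 21.9 CPM in knockout 1, 7.13 CPM in wild type 2 and 21.3 CPM in wild type 3. Markers of hypothalamic and basal forebrain neurons summed to 360 CPM against 63.6 to 82.2 CPM. A list of midbrain and brainstem genes, chosen after their values were seen, summed to 136 CPM against 17.7 to 20.3 CPM, with the dopamine transporter Slc6a3 at 15.8 CPM in knockout 2 and at 0.153 CPM or less elsewhere. In bulk tissue a larger number of cells of a type and more RNA per cell cannot be told apart.

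**Figure D1:**
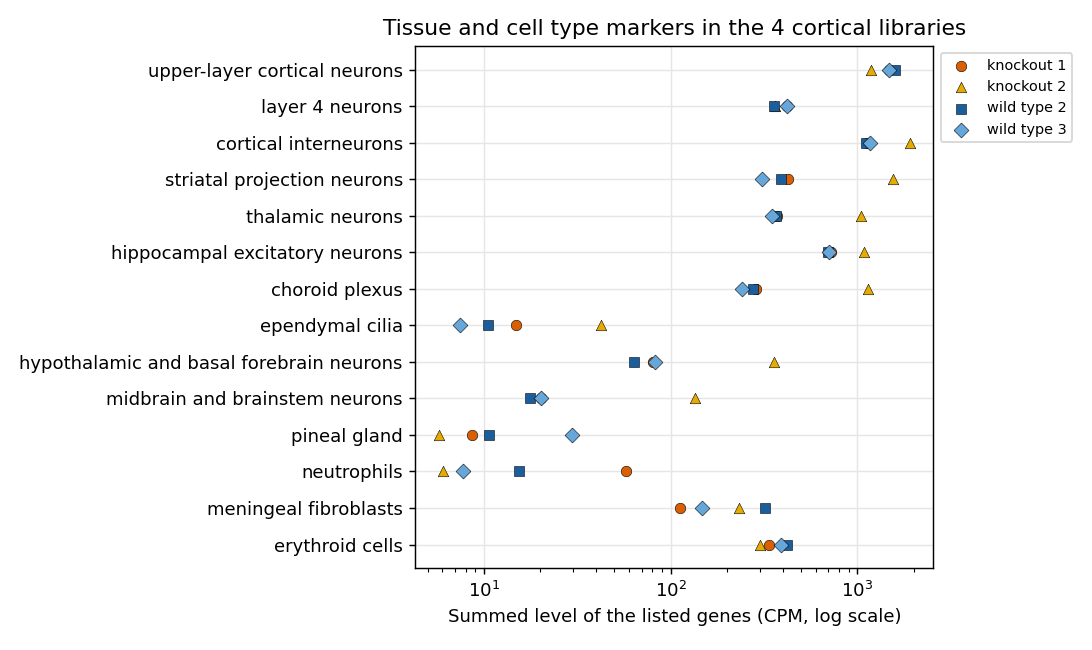
Summed level of the genes of 14 marker lists (CPM, log axis) in each of the 4 cortical libraries; each symbol is 1 library. Knockout 2 lies to the right of the other 3 libraries for striatal, thalamic, choroid plexus, ependymal, hypothalamic and brainstem markers, while knockout 1 lies apart for neutrophil, wild type 2 for meningeal and wild type 3 for pineal markers.

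The other 3 libraries each carried a smaller departure of their own. Genes of neutrophil granules summed to 57.6 CPM in knockout 1 and to 6.06, 15.4 and 7.73 CPM in knockout 2, wild type 2 and wild type 3, with Ngp at 15.1 CPM against 0.534 to 2.72 CPM. Meningeal fibroblast genes summed to 322 CPM in wild type 2 and to 112 to 233 CPM elsewhere, and Col1a1, the main fibrillar collagen chain, stood at 108 CPM there against 8.94 to 13.3 CPM. Pineal genes summed to 29.6 CPM in wild type 3 and to 5.76 to 10.7 CPM elsewhere, with Tph1, the pineal enzyme of serotonin synthesis, at 7.88 CPM against 0.17, 0.237 and 0.766 CPM. The neutrophil and pineal lists were also chosen after these values were seen.

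The make-up of the counted reads differed too. Gene models still awaiting experimental checks (biotype TEC), many of which lie within introns, took 0.329% of reads in knockout 2 and 1.06%, 0.845% and 1.17% in knockout 1, wild type 2 and wild type 3. Long intergenic RNA took 1.97% against 4.03% to 4.37%, and antisense genes 0.284% against 0.499% to 0.569%. Of the 1201 genes far below the others in knockout 2, 508 were TEC models and 173 were protein coding. Mitochondrial ribosomal RNA followed another split, at 0.591% in knockout 1 and 0.606% in wild type 3 against 0.0606% in knockout 2 and 0.0261% in wild type 2. Among protein-coding genes sorted by exon length into 5 bins, the median of knockout 2 minus the other 3 libraries was 0.34 (log2) for the shortest and 0.06 for the longest genes, while knockout 1 minus wild type was 0.00 in both. The part of tissue and of read make-up in differences of single genes was not tested, except by leaving knockout 2 out.

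**Figure D2:**
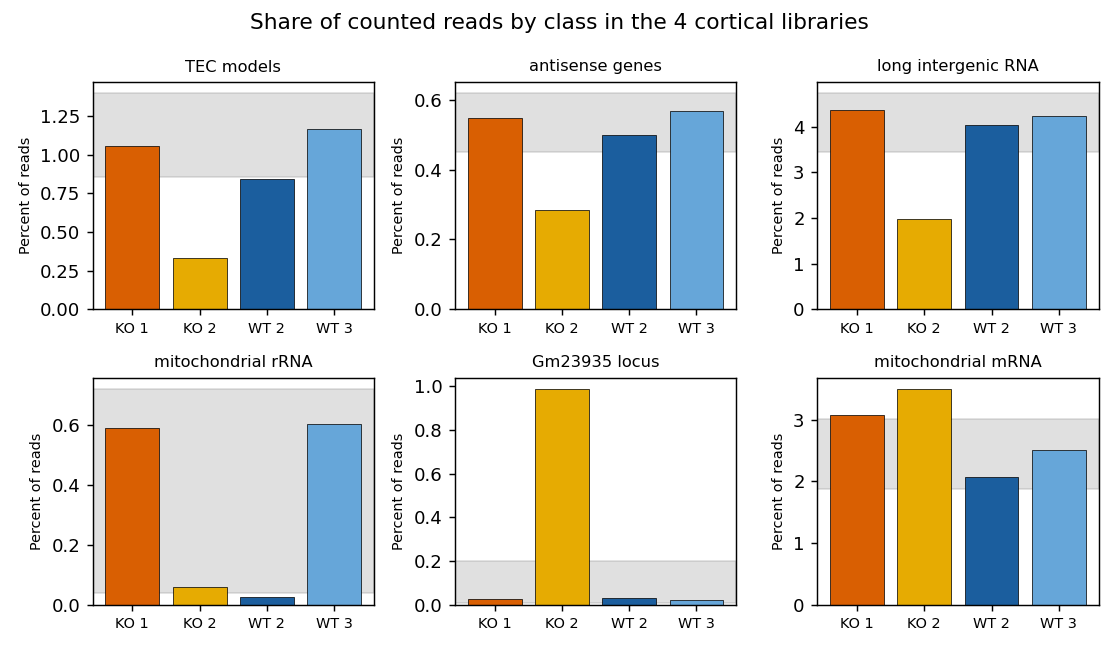
Share of counted reads (percent) taken by 6 classes in the 4 cortical libraries, 1 bar per library (KO, knockout; WT, wild type), with the range of the 10 libraries of hippocampus and cerebellum as a grey band. Knockout 2 is below the band for TEC models (0.329%), antisense genes and long intergenic RNA and above it for the Gm23935 locus, and mitochondrial rRNA is high in knockout 1 and wild type 3.

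No gene passed the test between genotypes in cortex when all 4 libraries were compared by edgeR's quasi-likelihood test with Benjamini-Hochberg adjustment over 24680 genes. At an adjusted p under 0.05, 0 genes were higher in knockout (0.0%) and 0 were lower (0.0%). At an unadjusted p under 0.05, 1115 genes were higher (4.52%) and 710 lower (2.88%), that is 61.1% of them higher, and 45.4% when libraries were scaled by their totals alone. DESeq2 called 47 genes in the same libraries, 32 higher (0.13%) and 15 lower (0.0608%), and limma voom called 0. In 24 of the 47 knockout 2 was more than 2-fold above knockout 1. All 47 had genotypes that did not overlap, so leaving knockout 2 out could not test their direction. Levels of the genotypes did not overlap, with both knockout libraries above both wild-type libraries, in 3454 genes (14%) and below in 3291 (13.3%). With library totals alone these counts were 2738 and 4053, and with DESeq2's size factors 3084 and 3612.

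The count of called genes turned on 1 library. With knockout 1 left out, so that knockout 2 stood alone against the wild type, edgeR called 1395 genes higher (5.41%) and 1610 lower (6.24%). With knockout 2 left out it called 0, and 352 genes were higher (1.37%) and 273 lower (1.06%) at an unadjusted p under 0.05. Without wild type 2 it called 0, and without wild type 3 it called only Col1a1 (0.00389%, lower), at a log2 fold change of -3.59. In these fits the lone library is assumed to vary like the other groups of the series.

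Ranking by p-value was limited to genes without overlap between the genotypes whose mean log2 CPM reached 1. In the higher direction Etnppl and Cyp2j9 came first. Etnppl, the astrocyte enzyme that breaks down phosphoethanolamine (3:130617448-130637521, plus strand, GRCm38), stood at 72.1 CPM in knockout 1, 97.8 CPM in knockout 2, 38.4 CPM in wild type 2 and 28.8 CPM in wild type 3. Both knockout libraries were clear of both wild-type libraries, and the log2 fold change was 1.34 ± 0.18 (SE, edgeR quasi-likelihood adjusted p = 0.184). It remained at 1.10 without knockout 2. Its adjusted p ran from 6.6e-06 in DESeq2 to 1 over the alternatives, and testing all genes with any reads, without a filter on low counts, made Etnppl the only edgeR call (adjusted p = 0.0088).

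Cyp2j9, a cytochrome P450 of the family that oxidises arachidonic acid (4:96568429-96591578, minus strand), followed. Its levels were 43.0 and 62.1 CPM in knockout 1 and 2 and 24.9 and 25.1 CPM in wild type 2 and 3. The wild-type libraries were nearly equal and both knockout libraries lay above them, at a log2 fold change of 1.07 ± 0.16 (SE, edgeR adjusted p = 0.236) and at 0.78 without knockout 2. No other gene had an edgeR adjusted p under 0.658.

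Of the other 10 genes with the smallest p-values in this direction, 4 had similar levels in knockout 1 and 2. Acer2, an alkaline ceramidase that yields sphingosine, stood at 17.1 and 19.7 CPM in knockout 1 and 2 against 8.51 and 8.98 CPM in wild type 2 and 3 (log2 fold change 1.07 ± 0.25, SE). Xdh, the xanthine dehydrogenase of purine breakdown, stood at 31.9 and 36.0 CPM against 20.7 and 13.0 CPM. Osmr, the receptor of the cytokine oncostatin M, stood at 16.3 and 15.1 CPM against 6.78 and 8.07 CPM, a log2 fold change of 1.08 that was 1.13 without knockout 2. Slc27a1, a fatty acid transport protein, stood at 84.3 and 80.5 CPM against 62.4 and 55.4 CPM. By the rule that chose these 4 genes, knockout 1 alone also lay above both wild-type libraries. Without knockout 2 the log2 fold changes were 0.96 for Acer2, 0.92 for Xdh and 0.51 for Slc27a1.

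The remaining 6 were higher in knockout 2 than in knockout 1, which lay above both wild-type libraries by the same rule. Itih3, which encodes a heavy chain of a hyaluronan-binding inhibitor, stood at 32.3 and 89.2 CPM in knockout 1 and 2 against 16.6 and 16.3 CPM in wild type 2 and 3. Its log2 fold change was 1.89 ± 0.37 (SE) and 0.97 without knockout 2. C3, the central complement component, stood at 2.76 and 5.34 CPM against 0.728 and 0.381 CPM. Its log2 fold change of 2.87 was 2.30 without knockout 2. Epn3, an endocytic adaptor, stood at 1.95 and 8.55 CPM against 0.651 and 1.10 CPM, and the actin regulator Phactr2 at 50.9 and 96.0 CPM against 33.8 and 35.4 CPM. Their log2 fold changes of 2.59 and 1.09 were 1.14 and 0.55 without knockout 2. Esrrb, an orphan nuclear receptor, and Lrrc10b completed the group, at log2 fold changes of 1.47 and 3.71 that were 0.81 and 1.23 without knockout 2.

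DESeq2 also called Gapdh, the glycolytic enzyme, at 60.9 and 193 CPM in knockout 1 and 2 against 24.8 and 23.0 CPM in wild type 2 and 3. These levels are uncertain, because Gapdh has many near-identical pseudogene copies and how the authors' counting treated reads that fit several places is not given. The lipocalin Apod, carried by glia and vessels, stood at 143 and 392 CPM against 86.1 and 74.5 CPM. Both genes were highest in knockout 2.

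**Figure D3:**
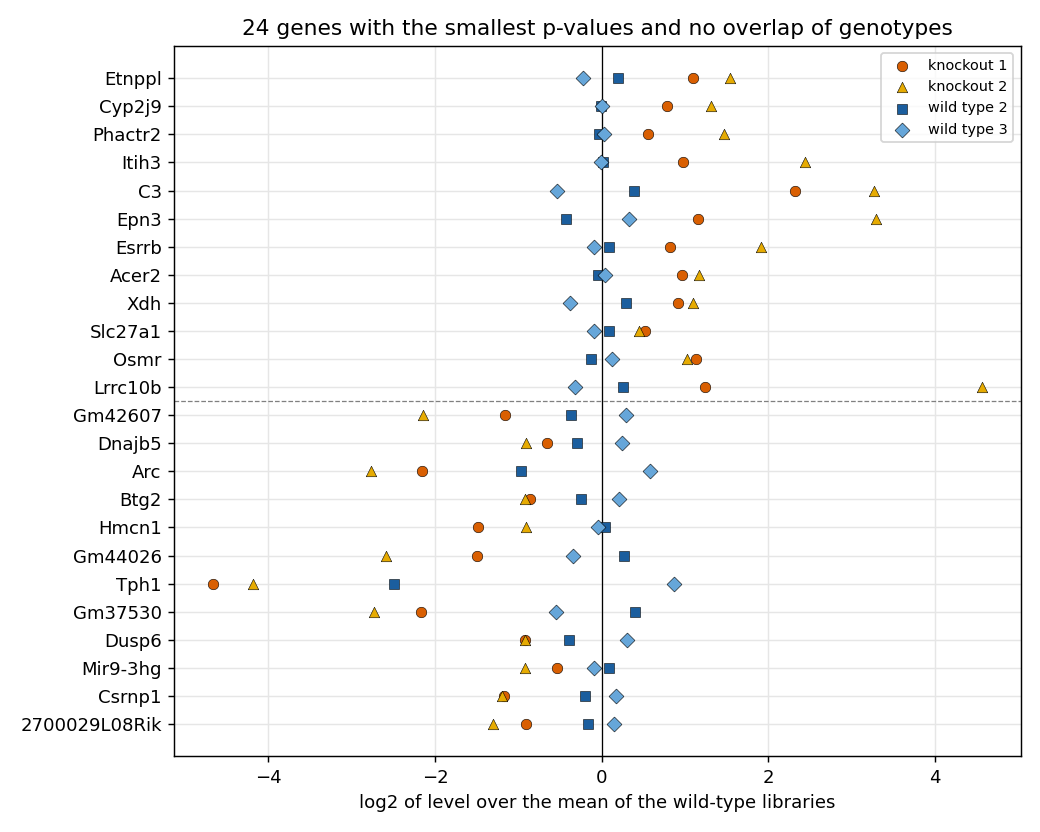
Level of the 12 genes per direction with the smallest p-values and no overlap between genotypes, as log2 of the level over the mean of the wild-type libraries; each symbol is 1 library and the dashed line parts higher from lower genes. Both knockout libraries lie on the same side of both wild-type libraries in all 24 by the rule that chose them, and knockout 2 lies farthest out for Lrrc10b, Epn3 and Itih3.

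In the lower direction, 4 of the 12 genes with the smallest p-values among those of at least this level and without overlap (Arc, Btg2, Dusp6 and Csrnp1) are known to be induced by activity or growth factors. Arc, the activity-regulated protein that removes glutamate receptors from synapses (15:74669083-74672570, minus strand), stood at 82.3 CPM in knockout 1, 54.0 CPM in knockout 2, 188 CPM in wild type 2 and 549 CPM in wild type 3. The groups did not overlap, but the wild-type libraries differed from each other more than wild type 2 differed from knockout 1. The log2 fold change was -2.44 ± 0.48 (SE, edgeR adjusted p = 0.658), and it was -2.17 without knockout 2 and -1.47 without wild type 3. DESeq2 called Arc, at an adjusted p of 9.4e-05, and over the alternatives its adjusted p reached 1.

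Btg2, an antiproliferative gene induced by growth factors and activity (1:134075170-134079120, minus strand), was also lower in both knockout libraries. It stood at 9.38 and 9.02 CPM in knockout 1 and 2 and at 14.3 and 19.7 CPM in wild type 2 and 3. The log2 fold change was -0.89 ± 0.19 (SE), -0.86 without knockout 2 and -0.64 without wild type 3. Dusp6, the phosphatase that switches off ERK, stood at 39.5 CPM in both knockout libraries against 56.9 and 92.0 CPM, and the transcription regulator Csrnp1 at 6.45 and 6.35 CPM against 12.6 and 16.4 CPM.

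The other 8 lower genes were of mixed kinds. Dnajb5, a co-chaperone of Hsp70, stood at 114 and 95.5 CPM in knockout 1 and 2 against 146 and 213 CPM in wild type 2 and 3. Hmcn1, the extracellular matrix protein hemicentin, stood at 7.00 and 10.4 CPM in knockout 1 and 2 against 20.2 and 19.0 CPM in wild type 2 and 3, and its log2 fold change of -1.16 was -1.49 without knockout 2. Tph1 was the pineal gene already described, and rested on wild type 3. The rest were noncoding: the TEC models Gm42607, Gm37530 and 2700029L08Rik, the antisense gene Gm44026 and the miR-9 host gene Mir9-3hg, at log2 fold changes of -1.57, -2.44, -1.09, -1.96 and -0.72. Knockout 2, in which the shares of TEC, antisense and long intergenic reads were low, was the lowest library for all 5. Without knockout 2 the log2 fold changes were -1.16, -2.18, -0.91, -1.50 and -0.54 in the same order. Their sign was fixed by the rule that chose the genes. Gm42607 lies within another gene, and its reads may not be told apart from those of that gene. For antisense genes, reads cannot be told apart without knowledge of the strand.

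Most of the 19 listed immediate early transcription factors had lower levels in knockout, and wild type 3 held the highest level of most. Their summed level was 631 CPM in knockout 1, 594 CPM in knockout 2, 784 CPM in wild type 2 and 1470 CPM in wild type 3. The median log2 fold change was -0.89, beside 0.02 over all genes tested. Of the 19, 17 were lower and 2 higher, 10 had genotypes that did not overlap, all lower (13.3% of all genes), 8 had an unadjusted p under 0.05, all lower (2.88% of all genes), and none passed the adjusted threshold. The median was -0.86 without knockout 2, -1.36 without wild type 2 and -0.39 without wild type 3. Wild type 3 was the highest library for 17 of the 19.

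Egr1, the zinc finger factor of synaptic plasticity, stood at 160 and 136 CPM in knockout 1 and 2 against 228 CPM in wild type 2 and 457 CPM in wild type 3. Its log2 fold change was -1.21 ± 0.30 (SE), and -0.63 without wild type 3. Fos, the partner of Jun in the AP-1 factor, stood at 6.83 and 9.35 CPM against 18.8 and 51.2 CPM. Wild type 2 lay about midway between knockout and wild type 3 on a log scale, and the log2 fold change of Fos was -2.11 ± 0.95 (SE). Junb stood at 18.2 and 19.3 CPM against 28.4 and 64.2 CPM, and Egr2 at 3.14 and 2.35 CPM against 5.79 and 30.4 CPM. Nr4a1, an orphan nuclear receptor, stood at 43.9 and 29.7 CPM against 77.9 and 149 CPM. Ier5 and Ier2 had log2 fold changes of -1.01 and -1.08 and Egr4 one of -1.09, again with wild type 3 highest. Jun ran the other way at a log2 fold change of 0.33, and this rested on knockout 2, where it stood at 70.3 CPM against 34.9 to 43.1 CPM in the other 3 libraries. Fosb, Fosl2, Nr4a2, Nr4a3, Klf4, Npas4 and Atf3 overlapped between genotypes.

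Most activity-induced effectors were also lower in knockout on the point estimate. Their summed level was 1470 CPM in knockout 1, 1690 CPM in knockout 2, 1760 CPM in wild type 2 and 2700 CPM in wild type 3. Of 23 tested genes, 19 were lower and 4 higher, with a median log2 fold change of -0.60. The genotypes did not overlap in 12, all lower (13.3% of all genes), and 9 had an unadjusted p under 0.05, all lower (2.88% of all genes). The median was -0.53 without knockout 2 and -0.28 without wild type 3. Dusp5, a nuclear ERK phosphatase, stood at 8.53 and 8.37 CPM in knockout 1 and 2 against 14.5 and 25.4 CPM in wild type 2 and 3 (log2 fold change -1.24 ± 0.31, SE). Bdnf, the neurotrophin, stood at 19.4 and 17.8 CPM against 25.6 and 35.7 CPM. Dusp1, a phosphatase of stress kinases, stood at 12.6 and 19.3 CPM against 30.3 and 43.6 CPM. Trib1 and the matrix protein gene Ccn1 had log2 fold changes of -0.93 and -1.26. Homer1, the postsynaptic scaffold, overlapped between genotypes at 335 and 196 CPM against 302 and 621 CPM. Over both lists wild type 3 was the highest library for 34 of 42 genes and the lowest for none, and knockout 1 or knockout 2 was the lowest for 18 and 20.

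**Figure D4:**
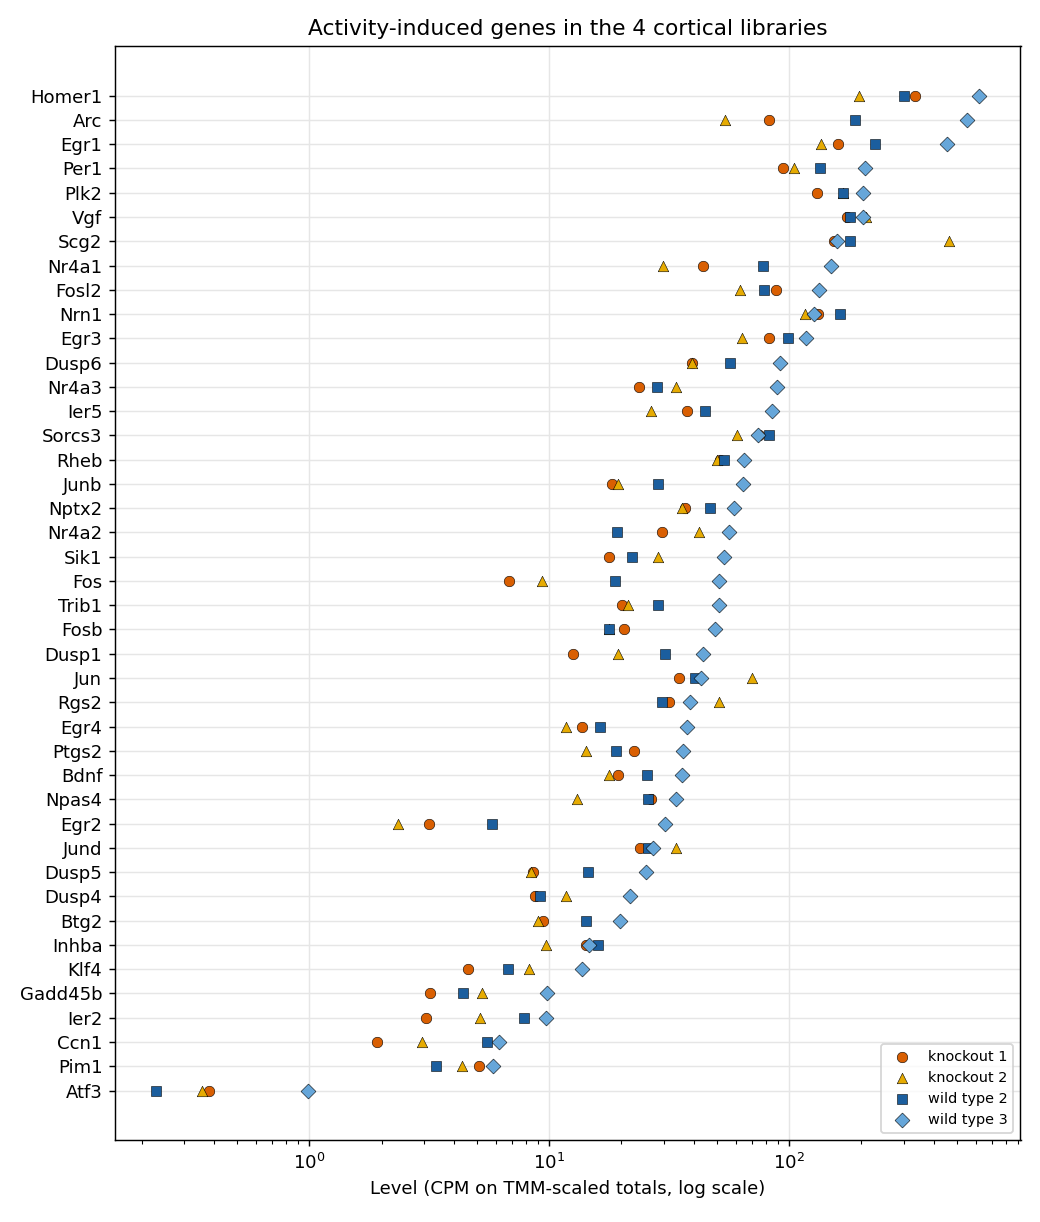
Level (CPM, log axis) of the 42 tested immediate early transcription factors and activity-induced effector genes in each cortical library, sorted by wild type 3; each symbol is 1 library. Wild type 3 is the rightmost symbol for 34 genes and wild type 2 lies nearer to the knockout libraries in many, such as Fosb and Homer1.

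Libraries of the other regions with the same title numbers showed part of this order. In hippocampus Arc stood at 92.4 and 92.9 CPM in the knockout libraries 1 and 2, 108 CPM in wild type 2 and 219 CPM in wild type 3, and Egr1 at 79.4, 93.6, 90.2 and 162 CPM. In cerebellum Arc was between 12.3 and 20.1 CPM in all 6 libraries, and Egr1 between 29.6 and 36.4 CPM. Cerebellar Fos stood at 3.67, 7.81 and 26.4 CPM in knockout 1, 2 and 3. In wild type 1, 2 and 3 it stood at 9.36, 19.2 and 36.8 CPM. The median log2 fold change of the immediate early factors was -0.4 in cerebellum and -0.16 in hippocampus. For the effectors it was -0.25 and -0.15. The log2 fold change of Arc was -2.44 in cortex, -0.82 in hippocampus and -0.04 in cerebellum, and neither difference between regions passed the test over all genes (edgeR adjusted p = 0.787 for cortex minus cerebellum). Whether libraries with the same number come from the same animal is not stated.

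Many activity-induced genes are known to be switched on through cyclic AMP response elements, bound by CREB, and CArG boxes, bound by serum response factor, while clock genes are driven through E-boxes. Promoter windows (250 bases before to 50 after the start) were taken from RefSeq (GRCm38.p6), and held a sequence for 16 of the 19 immediate early genes, 16 of the 24 listed effectors and 17 of the 19 clock genes. On both strands, TGACGTCA was found for 1, 3 and 1 genes of these lists, the CArG box for 1, 1 and 0, and CACGTG for 2, 6 and 5. Of all 32851 windows of this length, 1.79% held TGACGTCA, 1.63% a CArG box and 7.15% CACGTG. These shares are per window, whereas the lists are counted per gene, over 20, 25 and 23 windows, so the figures are not directly comparable. The 3 windows printed here, each the 200 bases before the start, show a clear case of each element in a gene that was lower in both knockout libraries, with the element in capitals: Btg2 (chr1:134079156-134079355, minus strand), Dusp5 (chr19:53528945-53529144, plus strand, where 2 CArG boxes adjoin) and Ciart (chr3:95882229-95882428, minus strand, with 3 E-boxes). A match describes the letters and shows no binding.
Btg2: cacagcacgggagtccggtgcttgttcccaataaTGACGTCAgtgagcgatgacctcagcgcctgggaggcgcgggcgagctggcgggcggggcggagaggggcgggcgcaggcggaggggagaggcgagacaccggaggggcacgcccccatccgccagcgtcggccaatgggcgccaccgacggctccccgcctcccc
Dusp5: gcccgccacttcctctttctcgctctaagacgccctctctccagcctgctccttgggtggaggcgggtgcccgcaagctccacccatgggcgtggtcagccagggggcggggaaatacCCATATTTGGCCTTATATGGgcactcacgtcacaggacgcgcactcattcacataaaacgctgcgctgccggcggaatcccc
Ciart: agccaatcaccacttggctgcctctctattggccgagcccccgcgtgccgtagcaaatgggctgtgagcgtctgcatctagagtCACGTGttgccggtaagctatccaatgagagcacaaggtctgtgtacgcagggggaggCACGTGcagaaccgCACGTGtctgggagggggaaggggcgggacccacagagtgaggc

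Clock genes were split. The repressors Per1 and Per2, which also respond to activity, stood at 93.9 and 105 CPM, and at 68.3 and 63.7 CPM, in knockout 1 and 2, against 134 and 207 CPM, and 82.5 and 132 CPM, in wild type 2 and 3. Ciart, a repressor of CLOCK and BMAL1, stood at 15.7 and 14.1 CPM against 24.9 and 20.9 CPM, and its log2 fold change of -0.62 ± 0.16 (SE) was -0.75 without wild type 3. Ciart was highest in wild type 2, as were 3 of the 42 activity genes. Nr1d1, the nuclear receptor that represses Arntl, stood at 114 and 131 CPM against 104 and 99.9 CPM. Arntl, Clock and Dbp overlapped between genotypes. Over the 19 clock genes the median log2 fold change was -0.10, with 13 lower and 6 higher.

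Glucocorticoid-responsive genes did not move together. Plin4, a lipid droplet coat protein, stood at 52.3 and 89.5 CPM in knockout 1 and 2 against 32.0 and 17.9 CPM in wild type 2 and 3, a log2 fold change of 1.51 ± 0.45 (SE). Lcn2, a siderophore-binding protein of inflammation, stood at 11.8 and 10.8 CPM against 3.10 and 0.381 CPM. Sgk1, Ddit4 and Nfkbia had genotypes that did not overlap in the lower direction, at log2 fold changes of -0.42, -0.53 and -0.56. Of 14 genes 9 were higher and 5 lower, with a median of 0.22 that was 0.02 without knockout 2. Interferon-response genes had a median of 0.16 over 20 genes.

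The summed level of transcripts from the mitochondrial genome was higher in both knockout libraries than in both wild-type libraries. The 13 mitochondrial mRNAs summed to 31700 CPM in knockout 1, 40300 CPM in knockout 2, 21400 CPM in wild type 2 and 25900 CPM in wild type 3. Of the 13, 12 were higher, 10 had genotypes that did not overlap, all higher (14% of all genes), and 10 had an unadjusted p under 0.05, all higher (4.52% of all genes). None passed the adjusted threshold. The median log2 fold change was 0.62, and 0.47 without knockout 2 and 0.41 without wild type 2. In hippocampus the median over these genes was 0.09 and in cerebellum -0.15.

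mt-Co1, the catalytic subunit of cytochrome c oxidase, stood at 16480 and 20135 CPM in knockout 1 and 2 against 11115 and 14323 CPM in wild type 2 and 3, so that knockout 1 exceeded wild type 3 only slightly. mt-Nd4, a subunit of complex I, stood at 2533 and 4022 CPM against 1879 and 1849 CPM (log2 fold change 0.81 ± 0.25, SE). mt-Atp6, of the ATP synthase, stood at 147 and 130 CPM against 65.8 and 102 CPM. mt-Nd2 and mt-Cytb had log2 fold changes of 0.66 and 0.61. Mitochondrial ribosomal RNA did not follow the genotype, as given above. The 29 nuclear genes of oxidative phosphorylation were all higher, at a median of 0.23, but each was highest in knockout 2, and the median was -0.06 without it. The 30 ribosomal protein genes behaved likewise, at a median of 0.27 and of -0.04 without knockout 2.

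Genes of fatty acid desaturation and arachidonate metabolism were all higher on the point estimate, 14 of 14, at a median log2 fold change of 0.33. Without knockout 2 the median was -0.09, and Cyp2j9 was the only member that DESeq2 called. Cholesterol synthesis genes had a median of -0.08, and of -0.31 without knockout 2. Heat shock proteins and chaperones had a median of 0.39, with 18 of 19 higher, and of 0.04 without knockout 2. Hspa5, the chaperone BiP of the endoplasmic reticulum, stood at 185 and 275 CPM in knockout 1 and 2 against 118 and 178 CPM in wild type 2 and 3.

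Lists of synaptic genes had medians near 0. AMPA and kainate receptor subunits had a median log2 fold change of -0.07 over 9 genes, NMDA receptors -0.07 over 6, metabotropic glutamate receptors -0.07 over 7, GABA-A receptors 0.10 over 12, presynaptic vesicle genes 0.11 over 21 and voltage-gated channels -0.05 over 25. Gria1, the AMPA receptor subunit of plastic synapses, stood at 446 and 665 CPM in knockout 1 and 2 against 389 and 390 CPM in wild type 2 and 3, and its log2 fold change of 0.51 was 0.19 without knockout 2. The AMPA receptor auxiliary subunits had a median of 0.25, and of -0.08 without knockout 2. Among them Shisa6, which slows receptor desensitisation, stood at 27.5 and 60.5 CPM against 19.7 and 18.7 CPM, and Cnih2, a cornichon, at 82.0 and 120 CPM against 77.6 and 60.4 CPM.

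Calcium-calmodulin kinases, calmodulins and calcineurin had a median log2 fold change of -0.01 over 21 genes, of which 6 did not overlap in the lower and 1 in the higher direction, beside 13.3% and 14% of all genes. Camk2a, the most abundant of them, stood at 4172 and 3147 CPM in knockout 1 and 2 against 3956 and 3399 CPM in wild type 2 and 3. Camkk1 and Camkk2, the kinases that activate CaMKI and CaMKIV, were lower in both knockout libraries. Camkk1 stood at 96.9 and 85.2 CPM against 119 and 127 CPM (log2 fold change -0.44 ± 0.15, SE), and Camkk2 at 284 and 185 CPM against 374 and 287 CPM. For Camkk2, knockout 1 and wild type 3 were nearly equal. Its log2 fold change ran from -0.84 to -0.23 with 1 library left out.

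Cell type lists mostly followed knockout 2. The median log2 fold change was -0.18 for upper-layer neurons, -0.13 for layer 4, 0.16 for layer 5, 0.11 for layer 6 and 0.33 for interneurons, and between -0.18 and 0.04 for these 5 lists without knockout 2. Astrocyte markers had a median of 0.44, with all 14 higher, and 0.03 without knockout 2. Etnppl stood at 1.10 without that library, but it had been chosen by its small p-value. The part of astrocyte content in its level was not tested. Oligodendrocyte genes summed to 2330 and 6020 CPM in knockout 1 and 2 and to 3820 and 1890 CPM in wild type 2 and 3, a spread within each genotype wider than that between them. Their median was 0.42, and -0.41 without knockout 2. Oligodendrocyte precursors had a median of 0.29, microglia of 0.22, endothelial and mural cells of 0.18 and erythroid cells of -0.41. Without knockout 2 these were -0.01, -0.02, -0.08 and -0.22. Meningeal fibroblast genes had a median of -0.35, and of -0.85 without knockout 2. Neutrophil genes had a median of 1.36, and of -0.55 without knockout 1.

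For tissue outside the cortex, the median log2 fold change was 2.1 for striatal, 1.84 for thalamic, 2.49 for choroid plexus, 2.84 for hypothalamic, 4.08 for brainstem and 1.52 for ependymal genes, and 0.28, 0.09, 0.29, 0.40, -0.48 and 0.79 without knockout 2. Ppp1r1b (DARPP-32), the dopamine-regulated phosphatase inhibitor, stood at 45.3 CPM in knockout 1 against 37.4 and 37.0 CPM in wild type 2 and 3, and at 196 CPM in knockout 2. Clic6, a choroid plexus channel protein, stood at 3.01 CPM in knockout 1 against 1.11 and 1.26 CPM, and at 23.7 CPM in knockout 2. Ependymal genes were the list with the largest median in this group without knockout 2. They summed to 14.8 CPM in knockout 1 and 42.5 CPM in knockout 2 against 10.6 and 7.46 CPM. Hippocampal excitatory genes had a median of 0.49, olfactory bulb and subventricular zone genes 0.52 and cerebellar genes 0.45, with 0.01, 0.03 and 0.14 without knockout 2. Pineal genes had a median of -0.91.

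**Figure D5:**
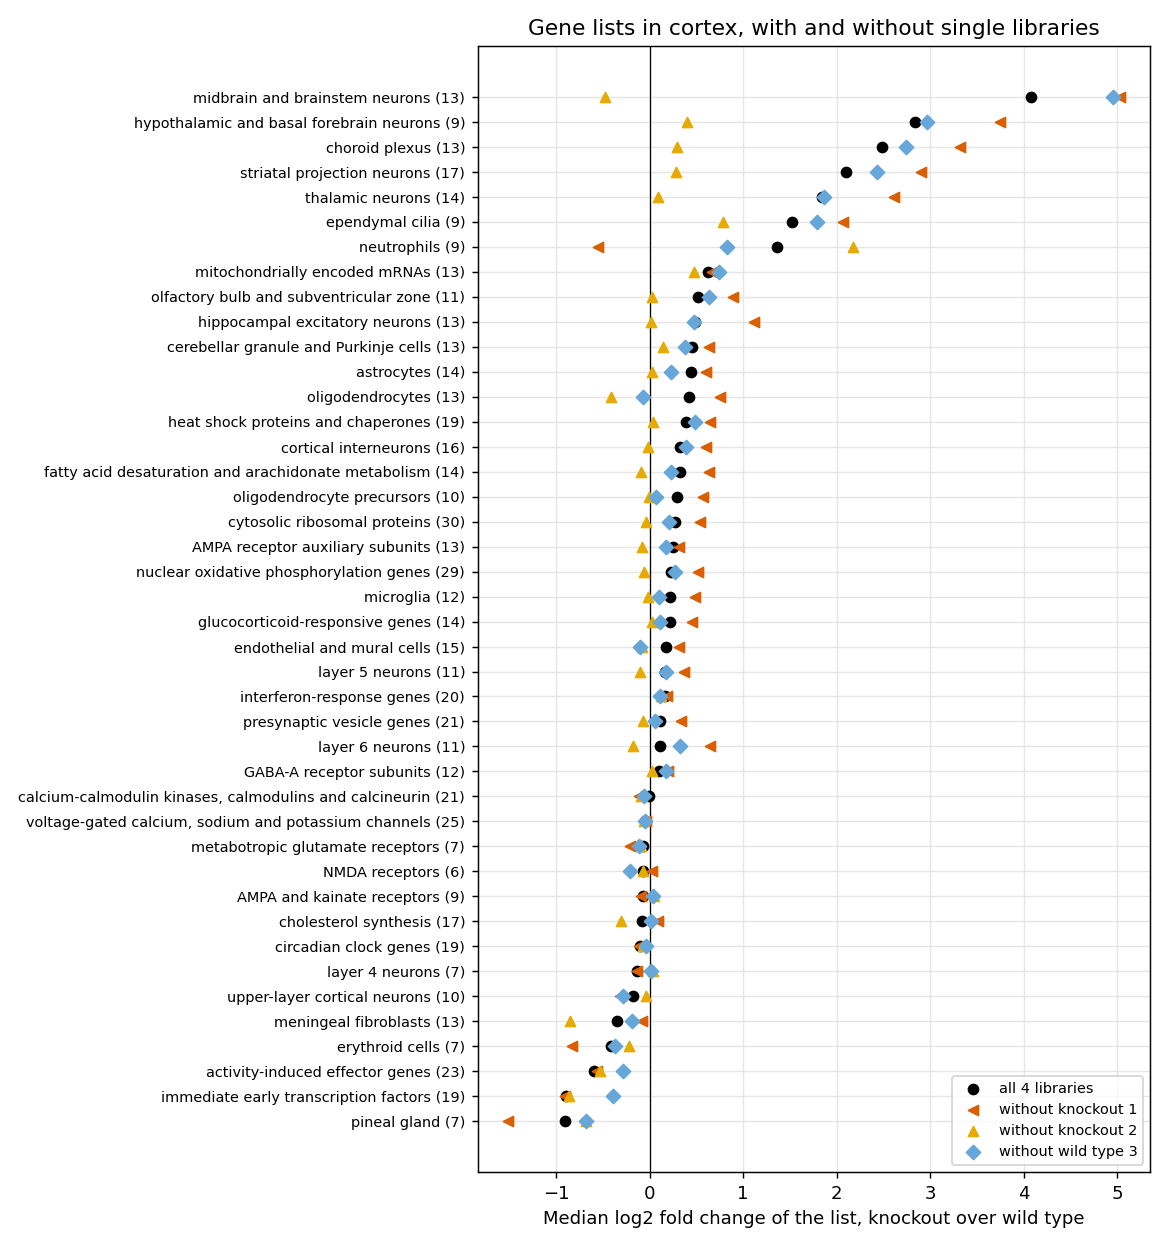
Median log2 fold change, knockout over wild type, of each of the 42 gene lists in cortex (number of tested genes in parentheses), with all 4 libraries and with 1 library left out; symbols are named in the key. Without knockout 2 the medians of the brainstem, hypothalamic, choroid plexus, striatal, thalamic and ependymal lists lie between -0.48 and 0.79, with all 4 libraries between 1.52 and 4.08, while the activity lists stay below 0 under each setting shown and lie nearest to 0 without wild type 3.

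Whether the cortical difference itself departed from that in the other regions was tested as an interaction over all genes. Against cerebellum 0 genes were called in the higher and 0 in the lower direction (0.0% each), with 809 (3.28%) and 500 (2.03%) at an unadjusted p under 0.05. Against hippocampus 0 were called as well, with 442 (1.79%) and 340 (1.38%) at an unadjusted p under 0.05. With library totals alone the counts at an unadjusted p under 0.05 were 395 higher and 791 lower against cerebellum (33.3% higher, beside 61.8%) and 313 and 415 against hippocampus (43% higher, beside 56.5%). DESeq2 and limma voom called 0 in both. Cyp2j9 had the smallest p-value against cerebellum, with a log2 fold change of 1.07 in cortex and 0.07 in cerebellum, a difference of 1.0 ± 0.21 (SE, edgeR adjusted p = 0.787). It was followed by Gm43150, annotated as antisense and counted at 8 to 45 reads per cortical library, and Hdc, the histamine-forming enzyme, at differences of -3.0 and 2.42. As for the other antisense genes, its reads cannot be told apart from those of a gene on the opposite strand without knowledge of the strand. Against hippocampus the smallest p-values belonged to Ccdc162 (difference 2.49), Daw1 (4.75) and Hdc (2.81). Daw1 had 6 and 21 reads in knockout 1 and 2 of cortex and 1 read in each wild-type library there. Etnppl was higher in knockout on the point estimate in every region, at log2 fold changes of 1.34 in cortex, 0.91 in hippocampus and 0.42 in cerebellum. With knockout 1 left out, 1551 genes were called against cerebellum and 760 against hippocampus.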

How the data were processed

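The authors deposited 1 table of whole-number read counts per gene, 48440 genes by 14 libraries, that were not normalized. The submitters' processing notes name Trim Galore 0.6.4, cutadapt 2.10, featureCounts 2.0.1, STAR 2.7.3a and the mm10 build (GRCm38.p6). Per the labels' protocols, TRIzol was used for total RNA, with a DNase step after it. Not given in the sources used here are the strand setting, the treatment of reads that fit several places and the annotation release. Symbols and coordinates came from GENCODE M21 (48058 identifiers, 99.2%, matched).

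Genes were filtered by edgeR's filterByExpr (24680 kept) and TMM factors were computed. The genotypes were compared in 1 fit over all 14 libraries, which shares the spread among groups (8 residual degrees of freedom), by the quasi-likelihood test of edgeR 4.0.16 under R 4.3.3, with robust estimation. An SE is the log2 fold change divided by the root of its F statistic. The interactions came from the same fit. Adjusted p-values are Benjamini-Hochberg values over all tested genes, and the threshold was 0.05. CPM values use TMM-scaled totals. DESeq2 1.42.0 and limma 3.58.1 (voom) were alternatives, as were another scaling, no filter, cortical libraries alone and each cortical library left out. On simulated counts of 24680 genes for the cortical comparison, edgeR recovered 81% of 4-fold and 30% of 2-fold changes with 9 false calls, and DESeq2 92% and 52% with 37. The simulated libraries all shared the same mean profile, without differences between regions and without a library set apart like knockout 2. Only genes with a mean log2 CPM above 1 were changed. These shares therefore do not measure what could be detected in the real libraries. With 24.3 M to 38.8 M reads per library, counting error is small for the levels given, except for the lowest.

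Named genes were the 12 smallest p-values per direction among genes without overlap and with a mean log2 CPM of at least 1, those of smallest p or highest level in each list, genes that set a library apart, and the smallest p-values of each interaction. Gapdh and Apod came from the most abundant DESeq2 calls. The members, the 42 lists and the rule were chosen with earlier results of these data known. No replicate pair looked like a library deposited in duplicate. The value of 1 tissue marker is not reported here.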

Additional observations from a re-analysis of the deposited data

How the results depend on the processing

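With 2 libraries per genotype, the spread between libraries limited what could be detected, depth was not varied, and the cause of the changes with a left-out library was not tested. edgeR's count of called genes was 0 with TMM, with DESeq2's size factors, with library totals and with the cortical libraries alone, and 1 without a low-count filter; limma voom also called 0. DESeq2 called 47, and 8 on the cortical libraries alone, a fit chosen after seeing the data. Leaving out 1 cortical library gave 0 to 3005 calls, 0 to 1551 for cortex minus cerebellum and 0 to 760 for cortex minus hippocampus, the highest values without knockout 1. At an unadjusted p under 0.05, leaving out 1 library gave 352 to 3670 genes higher and 273 to 4079 lower. The cortical libraries alone gave 268 higher and 171 lower, DESeq2 on them 355 and 160, and limma voom 1376 lower. Without TMM the median of all genes in cortex minus cerebellum moved from 0.03 to -0.10 (log2).

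A paired analysis was not made, because nothing in the labels pairs a knockout with a wild-type library. limma voom with the replicate block (genotype and title number over regions, estimated correlation 0.0962) called 0 genes and gave 1428 lower genes at an unadjusted p under 0.05.

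With 1 library left out, the median log2 fold change ran from -1.36 to -0.39 for immediate early transcription factors, -0.97 to -0.28 for activity-induced effectors, 0.41 to 0.74 for mitochondrial mRNAs, 0.28 to 2.90 for striatal and 0.29 to 3.32 for choroid plexus genes. The median of 19 of the 42 lists had opposite signs between fits that each left out 1 library, among them -0.09 to 0.64 (fatty acid), -0.09 to 0.05 (AMPA and kainate receptors), -0.06 to 0.02 (voltage-gated channels) and -0.48 to 5.03 (brainstem). Of the 72 genes with a fold change in the text, Jun (-0.27 to 0.75) and Camk2a (-0.22 to 0.18) changed sign in this way and none did so under another setting. DESeq2 size factors moved none of the 42 list medians by more than the spread between replicates, nor did limma voom, and library totals moved 5.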
